A study of Mus musculus with 16 samples.

Results

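The 7 genes described here are the CDK inhibitors of the mouse: the Cip/Kip genes Cdkn1a, Cdkn1b and Cdkn1c and the INK4 genes Cdkn2a, Cdkn2b, Cdkn2c and Cdkn2d. They were chosen by name, as the family to which the literature target Cdkn1b belongs, from the 43432 gene rows of the authors' expression table, and all 7 had a row. The study set splenic B cells without the paired miRNAs miR-221 and miR-222 (KO) against Flox B cells. RNA-seq covered 4 KO and 4 Flox libraries, and Ago2 HITS-CLIP another 4 KO and 4 Flox libraries. The strain label of all 16 libraries is C57B6L/J. Both groups were cultured with aCD40 (500 ng/ml), IL4 (25 ng/ml) and IL21 (10 ng/ml), which together push B cells into division, and were taken after 4 days. The Cre line, the age of the mice and whether each library is 1 mouse are not given in the sources used here. The p-values therefore measure the spread between these libraries, which may in part be technical.

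CDK inhibitors are small proteins that hold back the cyclin-dependent kinases that move a cell from G1 into S phase. Cip/Kip proteins bind complexes of cyclins with CDK2 and, in other ways, with CDK4 and CDK6, whereas INK4 proteins bind CDK4 and CDK6 alone and keep them from D-type cyclins. In lymphocytes p27, the product of Cdkn1b, is high at rest and is removed as cells are activated, mainly by ubiquitination through SKP2. In human cancer cells CDKN1B mRNA is a known target of miR-221 and miR-222, and through it this family was chosen. Published evidence on the other members as targets of these miRNAs was not reviewed here.

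The mature sequences of both deleted miRNAs are shown because their seeds decide which mRNAs they can pair with. The seed, bases 2 to 8, is in capitals, and the sequences are from RefSeq (GRCm38.p6, chromosome X, minus strand, 19146307 to 19146329 for miR-221-3p and 19146901 to 19146923 for miR-222-3p).
miR-221-3p: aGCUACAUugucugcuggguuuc
miR-222-3p: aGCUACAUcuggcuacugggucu
The leading 8 bases are the same in both, so both pair with the same 7-letter site, ATGTAGC in DNA letters. The genome sequence under the Ago2 regions was not used here, so this site was not looked for in the CDK inhibitor mRNAs.

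KO libraries held 22947689 to 39236132 RNA-seq reads and Flox libraries 25421025 to 39616596. Of the deleted genes, Mir221 was read 0 times in every KO library and 0, 0, 3 and 1 times in Flox 1 to 4, and Mir222 0 times in all 8, which is too few to check the labels. The libraries KO 1 and KO 3 stood apart, at -38.0 and -35.6 on the leading principal component, against -15.4 and 7.48 in KO 2 and KO 4 and 14.5 to 26.5 in the Flox libraries. The level of 8 B cell markers summed to 365741 to 446595 normalized counts in KO and 350373 to 437875 in Flox, and all 8 were detected. Most of this sum was Cd74, at a mean of 304386 in KO and 279599 in Flox. On the log2 scale 6 of the 8 were higher in KO (Pax5 at 0.57, Cd22 at 0.26) and 2 lower, 0 of them at a limma adjusted p under 0.05. Summed markers of 8 NK and dendritic cell genes stood at 3878 to 4502 in KO and 4504 to 5213 in Flox, and those of 11 erythroid and stromal genes at 781 to 938 in KO and 599 to 723 in Flox, so neither pair of ranges overlapped. The sums overlapped for 9 T cell genes (5319 to 6368 in KO, 5111 to 5883 in Flox), for 9 myeloid genes (72.0 to 104 in KO, 50.5 to 93.8 in Flox) and for plasma cell genes (75674 to 92897 in KO, 78922 to 103466 in Flox). S100a8, S100a9, Ncr1, Hba-a1, Hbb-bs and Alas2 were listed at 0 in all 8 libraries. The NK and dendritic sum was mostly Flt3 and Zbtb46, the stromal sum mostly Pecam1 and the T cell sum mostly Thy1 and Lck. Markers within a list did not move together. Of 4 tested NK and dendritic genes, 1 was higher in KO (Prf1, log2 fold change 0.66) and 3 lower (Flt3 -0.32, Zbtb46 -0.15, Itgax -0.09). Of 3 tested erythroid and stromal genes, 1 was higher (Pecam1, 0.36) and 2 lower (Hbb-bt -0.75, Cdh5 -0.0005). The part of these shifts in the results was not tested. The data are bulk, so that fewer cells of a type and less RNA per cell cannot be told apart.

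None of the 7 CDK inhibitors changed between KO and Flox B cells at a Benjamini-Hochberg adjusted p of 0.05 in limma, and Cdkn1b was close to equal. Values are normalized counts, the authors' read counts divided by 1 size factor per library, and fold changes are on the scale of log2(value + 1). All 7 passed the filter of a mean of at least 10. Of the 13091 genes tested, 9 passed the threshold (0.0687%), 2 lower in KO (0.0153%) and 7 higher (0.0535%), and of the 7 inhibitors 0 did. At an unadjusted p under 0.05 stood 3 of the 7, all lower in KO (Cdkn1c, Cdkn2d and Cdkn2c), against 15.1% of all genes tested, with 7.39% lower and 7.74% higher. No inhibitor passed in edgeR (9 genes called, 0.0687%) or in DESeq2 (199 genes called, 1.52%), both run on reads recovered from the table. The authors' deposited table has 191 genes at an adjusted p under 0.05 (1.58%), none of them an inhibitor. A negative log2 fold change was found in 6 of 7 and a positive one in 1, against 51.5% and 48.5% of all genes, with a median of -0.24 against -0.01 over all genes. In 2 of the 7 (Cdkn1c and Cdkn2c) the KO and Flox libraries did not overlap, as in 7.97% of all genes.

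Cdkn1b encodes p27, which binds and inhibits cyclin E-CDK2 and cyclin A-CDK2. It lies on chromosome 6 from 134920401 to 134925513 on the plus strand in GRCm38. It had 3774.5, 2712.5, 4222.5 and 3827.4 normalized counts in KO libraries 1 to 4, against 3251.0, 3526.8, 4185.8 and 4328.8 in Flox libraries 1 to 4. The groups overlapped over most of their range, and KO 2 was the lowest of the 8. The mean was 3634 ± 646 in KO and 3823 ± 517 in Flox (SD, n = 4 each). KO over Flox this is -0.08 on the log2 scale, with an SE of 0.14 and a limma adjusted p of 0.796. The 95% interval of this difference ran from -0.39 to 0.23, which is a fold of 0.762 to 1.17. Its sign turned without KO 2, to 0.05, and with the correction for gene span and GC content, to 0.01.

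Cdkn1a encodes p21, an inhibitor of CDK2 complexes that p53 induces. It lies on chromosome 17 from 29090979 to 29100722 on the plus strand. Its normalized counts were 4017.6, 2562.5, 2318.2 and 2581.4 in KO, against 3003.8, 3741.5, 3608.0 and 3435.1 in Flox. KO 1 was the highest of the 8 libraries, and the other 3 KO libraries were below every Flox library. The mean was 2870 ± 774 in KO and 3447 ± 321 in Flox, which is -0.29 on the log2 scale (SE 0.15; 95% interval -0.63 to 0.04; limma adjusted p = 0.375). Without KO 1 the log2 fold change was -0.47 (SE 0.10) and the limma adjusted p was 0.423. The limma unadjusted p was 0.0824 with all libraries and 0.000835 without KO 1. As KO 1 stands out in the values of Cdkn1a itself, that smaller p is only a description.

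Cdkn1c encodes p57, the imprinted member of the Cip/Kip group, expressed from the maternal copy. It lies on chromosome 7 from 143458339 to 143461050 on the minus strand. It was read thinly: KO 1 to 4 gave 37, 28, 29 and 31 reads, and Flox 1 to 4 gave 103, 83, 44 and 52. In normalized counts these were 39.1, 36.5, 33.5 and 23.5 in KO, against 77.4, 72.4, 50.9 and 53.7 in Flox. All 4 KO libraries lay below all 4 Flox libraries, which 3.79% of the genes tested also showed. The mean was 33.2 ± 6.83 in KO and 63.6 ± 13.3 in Flox, which is -0.92 on the log2 scale (SE 0.25; 95% interval -1.47 to -0.37; limma adjusted p = 0.239). The authors' deposited table gives Cdkn1c a log2 fold change of -0.96 with an adjusted p of 0.0519, and DESeq2 on the recovered reads gave an adjusted p of 0.0568.

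**Figure D1:**
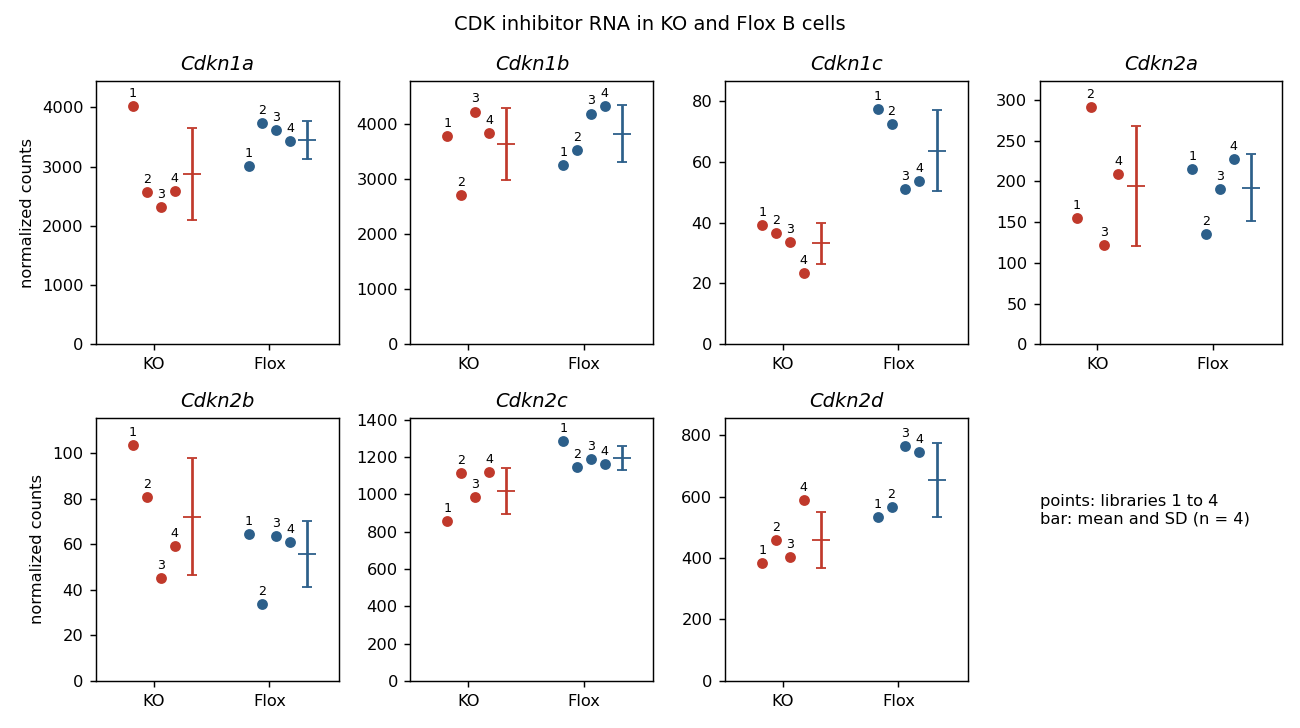
Normalized counts of the 7 CDK inhibitors (vertical axes, linear, from 0) in KO and Flox libraries 1 to 4 (numbered points), with the mean and SD of 4 libraries as bars. Cdkn1c and Cdkn2c are the genes in which every KO point is below every Flox point; Cdkn1b overlaps, between 2712.5 and 4222.5 in KO and 3251.0 and 4328.8 in Flox.

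Cdkn2a encodes p16 and, in another reading frame, p19ARF, a stabiliser of p53; the table counts both together. It lies on chromosome 4 from 89274471 to 89294653 on the minus strand. It had 155.4, 290.8, 121.4 and 209.2 normalized counts in KO, against 215.6, 135.2, 191.1 and 227.3 in Flox. The KO libraries held both the highest and the lowest of the 8 values, and the log2 fold change was -0.03 (SE 0.26, limma adjusted p = 0.962; 95% interval -0.61 to 0.54). Without KO 1 and KO 3 it was 0.38 (limma adjusted p = 0.784).

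Cdkn2b, which encodes p15, an inhibitor of CDK4 and CDK6 that TGF-beta induces in epithelial cells, lies 11635 nt from Cdkn2a on the same strand (89306289 to 89311032). It had 103.6, 80.9, 45.1 and 59.1 normalized counts in KO, against 64.6, 34.0, 63.7 and 61.0 in Flox, and was the one inhibitor with a positive log2 fold change, 0.34 (SE 0.30, limma adjusted p = 0.582; 95% interval -0.32 to 1.01). KO 1 and KO 2 lay above all Flox libraries and the others among them. The value depended on single libraries, at 0.15 without KO 1, 0.54 without KO 3 and 0.12 without Flox 2.

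Cdkn2c encodes p18, an INK4 protein that in mice limits the division of B cells and is needed for normal plasma cell formation. It lies on chromosome 4 from 109660876 to 109667189 on the minus strand. Its normalized counts were 859.3, 1115, 983.9 and 1118.7 in KO, against 1284.8, 1143.9, 1189.2 and 1163.3 in Flox, so the highest KO library was just under the lowest Flox library. The mean was 1019 ± 124 in KO and 1195 ± 62.5 in Flox, which is -0.24 on the log2 scale (SE 0.10; 95% interval -0.46 to -0.01; limma adjusted p = 0.319). Without KO 1 and KO 3 it was -0.10 (limma adjusted p = 0.828).

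Cdkn2d encodes p19INK4d, an INK4 protein distinct from p19ARF. It lies on chromosome 9 from 21288410 to 21291407 on the minus strand. It had 384.7, 457.7, 404.7 and 588.9 normalized counts in KO, against 532.7, 567.2, 766.5 and 745.9 in Flox. Only KO 4 reached into the Flox range, above Flox 1 and Flox 2. The mean was 459.0 ± 91.9 in KO and 653 ± 120.2 in Flox, which is -0.51 on the log2 scale (SE 0.17; 95% interval -0.87 to -0.15; limma adjusted p = 0.250). The authors' deposited table gives -0.50 with an adjusted p of 0.108. Without KO 1 and KO 3 the log2 fold change of Cdkn2d was -0.31 (SE 0.18, limma adjusted p = 0.779).

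In these libraries the fold change moved with gene span, and 4 of the 7 genes are in the group of shortest span below. Cdkn1c spans only 2712 nt but is in none of these groups, as its mean of 48.4 normalized counts is under 50. The median log2 fold change was -0.12 in the 2055 protein-coding genes of shortest span, 374 to 8630 nt (mean of at least 50 normalized counts), which include Cdkn1b, Cdkn2b, Cdkn2c and Cdkn2d. It was -0.06 in the next 2055, which include Cdkn1a, -0.02 in the middle 2054, which include Cdkn2a, and 0.13 in the 2055 of longest span, which include none of the 7. With each library corrected for span and GC content, Cdkn1a was at -0.19, Cdkn1c at -0.74, Cdkn2c at -0.15 and Cdkn2d at -0.37, all nearer to 0 than without the correction, and Cdkn2b was at 0.44. The limma adjusted p of the 7 genes was 0.260 to 0.986 in that fit.

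**Figure D2:**
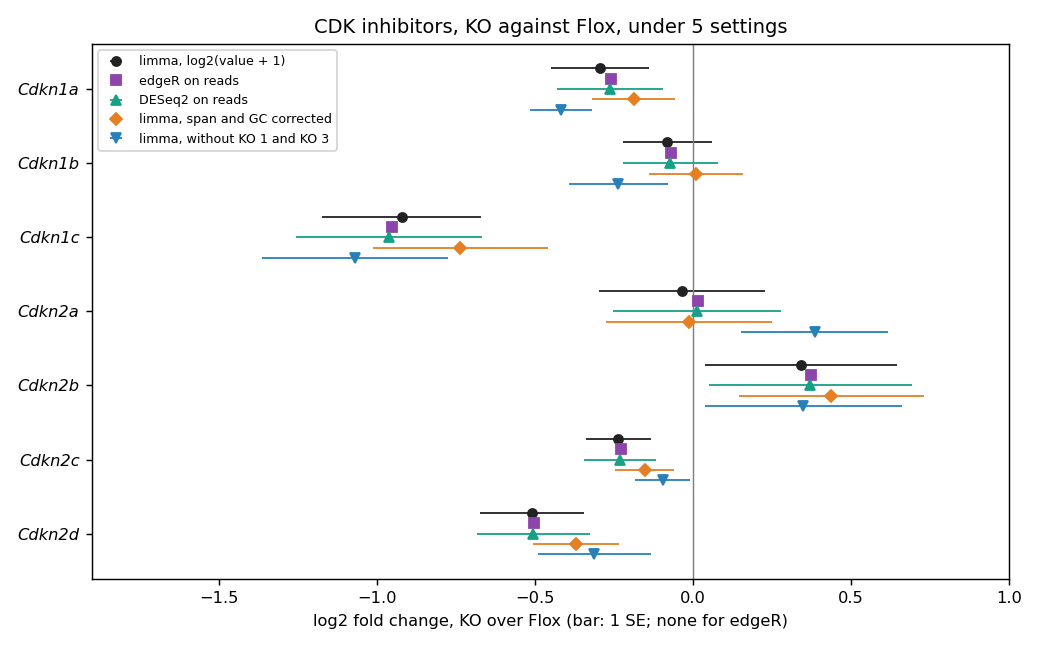
Log2 fold change, KO over Flox (horizontal axis), of the 7 CDK inhibitors in 5 fits (marker shapes), with 1 SE as bars where the fit gives one. Cdkn1a, Cdkn1c, Cdkn2c and Cdkn2d stay below 0 in these 5 fits and Cdkn2b above 0, while Cdkn1b and Cdkn2a cross 0.

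The inhibitors did not vary as 1 group across libraries. The correlation of log2 values within genotype over the 8 libraries was -0.95 between Cdkn1c and Cdkn2d, -0.79 between Cdkn1a and Cdkn2c and 0.64 between Cdkn2a and Cdkn2c, and that of the neighbours Cdkn2a and Cdkn2b was 0.57. These are descriptions over 8 libraries that share depth and handling. Among 9721 genes with a mean of at least 100, the pattern most like that of Cdkn1b over the 8 libraries was Tubb4a, a beta tubulin gene (Pearson r = 0.99), then Fam3a (0.98) and Aldoc, a glycolytic aldolase (0.97). The nearest to Cdkn1a were Psrc1 (0.97), Arhgap27 (0.97) and Crip2 (0.96). The nearest to Cdkn2d were Ormdl3 (0.99), Rab34 and Zfand5 (0.99 each). The nearest to Cdkn2c were Snx6, Glmn and Cct5, a subunit of the chaperonin CCT (0.98 each). The nearest to Cdkn2a were Grk6 (0.96), Tbl3 (0.95) and Wdr6 (0.95), and the nearest to Cdkn2b were Prr5 (0.95), Prelid1 (0.93) and Arpc2 (0.93). The nearest to Cdkn1c was Tnfrsf22 (0.97), then Rabep2 (0.96) and Scin (0.91); within genotype these 3 stood at 0.86, 0.86 and 0.74.

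Tnfrsf22 lies in the same part of chromosome 7 as Cdkn1c. A list of 20 genes named from the imprinted domain around Cdkn1c and its neighbours had 13 tested genes, Cdkn1c among them, with a median log2 fold change of -0.11. At a limma adjusted p under 0.05, 2 were lower in KO and 0 higher, against 0.0153% and 0.0535% of all genes tested. The list was chosen with earlier results known and holds the only 2 genes called lower, so this count is not independent of the data. Trpm5, near the floor, was at 30.15 ± 12.3 in KO and 3.35 ± 1.29 in Flox (2.76, SE 0.48, limma adjusted p = 0.121). Tnfrsf26, of the TNF receptor superfamily, fell to 395 ± 66.3 normalized counts in KO, against 1540 ± 167 in Flox (log2 fold change -1.97, SE 0.13, limma adjusted p = 3.86e-05). The tetraspanin gene Tspan32 fell to 878 ± 70.6 in KO, against 1556 ± 92.1 in Flox (-0.83, SE 0.09, limma adjusted p = 0.00283). Tnfrsf22 averaged 211 ± 41.6 in KO and 369 ± 46.2 in Flox (-0.82, SE 0.17, limma adjusted p = 0.238). The genes next to Cdkn1c on either side did not share its direction: Kcnq1ot1, the imprinted antisense RNA 161789 nt away, was at 244 ± 46.6 in KO and 184 ± 20.6 in Flox (0.40, SE 0.16, limma adjusted p = 0.304), and Nap1l4, 52528 nt away, was at 0.07 (SE 0.08).

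Next to Cdkn1b, 3578 nt past its 3′ end, lies Lockd, a long noncoding RNA. It had 534.8, 712.0, 370.0 and 703.3 normalized counts in KO, against 661.2, 815, 842.9 and 805.8 in Flox, with KO 2 and KO 4 above Flox 1 (log2 fold change -0.47, SE 0.19, limma adjusted p = 0.298). Beside Cdkn1a, Trp53cor1, the p53-induced lincRNA-p21, had 68.7 normalized counts in KO 1 and 25.8 to 30.1 in the other KO libraries, against 22.5 to 33.2 in Flox. KO 1 was thus the highest library for both Cdkn1a and its neighbour. Faf1 next to Cdkn2c was at -0.16 (SE 0.09) and Mtap next to Cdkn2a at -0.06 (SE 0.11). Of the neighbours of Cdkn2d, Kri1, 440 nt away, was at 0.08 (SE 0.08). Ap1m2, 2867 nt away on the other side, had 39.1, 20.9, 34.7 and 34.9 normalized counts in KO, against 48.1, 44.5, 39.4 and 53.7 in Flox. All 4 KO libraries were below all 4 Flox libraries, as in 3.79% of genes tested, but KO 1 was only just under Flox 3. Ap1m2 was read thinly, at 16 to 64 reads per library, and its log2 fold change was -0.53 (SE 0.26, limma adjusted p = 0.353).

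The kinases and cyclins that these proteins inhibit were compared next. The 10 pathway lists hold 190 tested genes, of which 2 passed, both in the Cdkn1c domain, and 31 (16.3%) had an unadjusted p under 0.05, against 15.1% of all genes. Of 11 tested G1 cyclins and CDKs, 0 passed; 6 lay above 0 and 5 below on the log2 scale, and the median was 0.04. Cdk6, an INK4 target kinase, averaged 536 ± 31.8 in KO and 396 ± 70.7 in Flox (normalized counts), with all KO libraries above all Flox libraries (0.45, SE 0.14, limma adjusted p = 0.240); 4.18% of genes tested showed this. Ccnd2, the D cyclin that B cells induce, was at 0.23 (SE 0.10), Cdk7 at -0.17 and Mnat1 at -0.16. Of 10 tested cyclins and kinases of S phase and mitosis 0 passed, with a median of -0.02; Cdk1, the mitotic kinase, was at -0.26 (SE 0.11), its inhibitory kinase Wee1 at 0.18, Cdc25c at -0.21 and Cdc20 at -0.19.

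Downstream of the kinases, 0 of 19 tested RB and E2F genes passed, 15 had a positive log2 fold change, and the median was 0.11. The repressor E2f7 was at 0.45 (SE 0.16), the E2F partner Tfdp1 at 0.27, the mitotic transcription factor Foxm1 at 0.24 and E2f4 at 0.25. Of 25 tested replication and mitosis genes 0 passed and 14 were positive, with a median of 0.01. Mki67, the proliferation marker Ki-67, was at 25138 ± 5404 in KO and 19910 ± 3389 in Flox (0.33, SE 0.15), and KO 3 alone was at 33156.5. Tk1 was at -0.33, Aurkb at -0.16 and Tyms at -0.24. Summed over this list the levels were 196460 to 220729 in KO and 186230 to 221212 in Flox, so the groups overlapped.

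**Figure D3:**
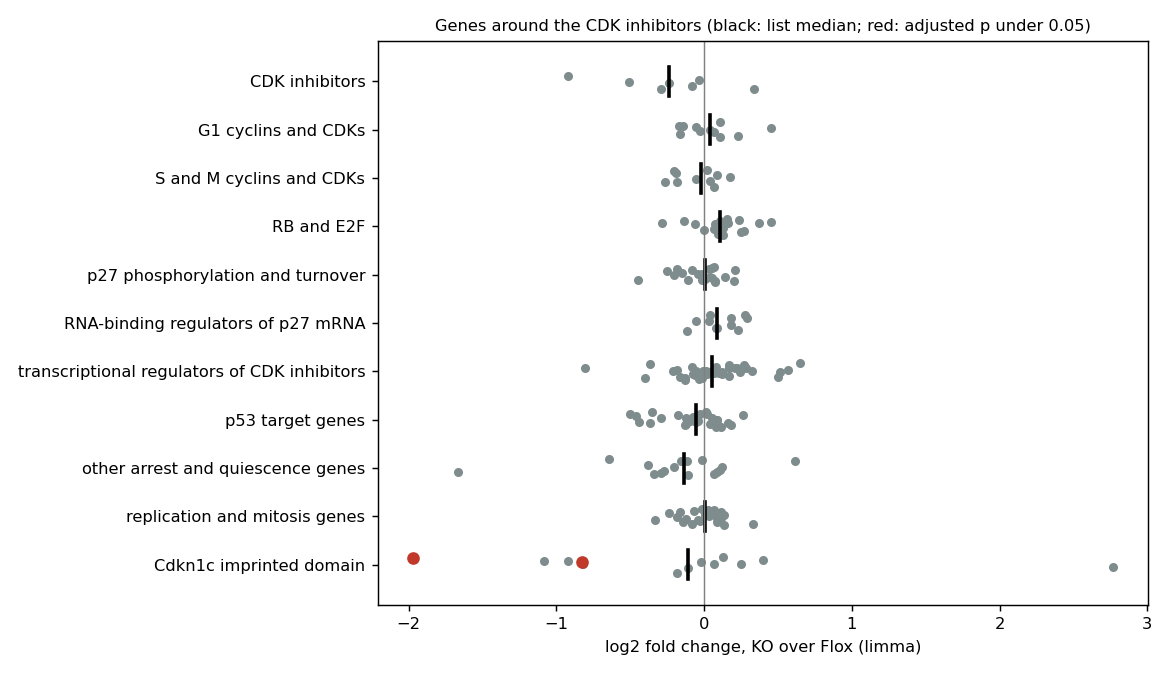
Log2 fold change, KO over Flox (limma, horizontal axis), of the tested genes of the CDK inhibitor family and 10 lists around it (1 point a gene, black bar the list median, red a limma adjusted p under 0.05). The red points are Tnfrsf26 and Tspan32 in the Cdkn1c domain, and the inhibitor median is -0.24; the point at the far right is Trpm5, which did not pass.

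The regulators of the inhibitors followed. Of 21 tested genes that phosphorylate or degrade p27, 0 passed, 11 were positive, and the median was 0.00. The 4 with the smallest p were Dyrk1a (0.21), Skp1a, a subunit of the SCF ubiquitin ligase (-0.21), Fbxw7 (0.20) and Rnf123, the catalytic subunit of the p27 ligase KPC (0.14). Skp2, named after its value was seen because it is the main receptor for p27, was at 602 ± 118 in KO and 569 ± 82.9 in Flox (0.07, SE 0.15). Of 11 tested RNA-binding proteins that act on p27 mRNA, 0 passed and 9 were positive, with a median of 0.09. Ptbp1 was at 0.29, Rbm38 at 0.19 and Hnrnpd at 0.18.

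Of 38 tested transcriptional regulators of the inhibitors 0 passed, with 22 positive and a median of 0.06. Foxp1, a forkhead transcription factor of B cells, was at 0.51 (SE 0.13, limma adjusted p = 0.239), Kmt2a at 0.50, Stat5a at -0.40 and Stat3 at 0.24. In 27 tested p53 target genes 0 passed, 16 were negative, and the median was -0.06, or -0.011 with the span and GC correction. An unadjusted p under 0.05 was found in 4 of the 27, against 15.1% of all genes. These 4 were lower in KO: Pmaip1 (-0.50), Ddit4 (-0.46), Phlda3 (-0.44) and Bbc3 (-0.35), of which Pmaip1 and Bbc3 encode death activators, each with a limma adjusted p of 0.239 to 0.258. In 16 tested genes of arrest and quiescence outside the CDK inhibitors 0 passed and 11 were negative, with a median of -0.13. Tsc22d3, a glucocorticoid-induced gene and FOXO target, was at -0.38, the forkhead gene Foxn3 at 0.62, Rassf1 at -0.34 and Gadd45g at -0.20.

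Ago2 binding was then described along the 7 genes. HITS-CLIP sequences RNA fragments crosslinked to a protein, here Ago2, which carries miRNAs to their targets. The authors' output compares a pair of conditions in 5-nt bins after pooling the replicates of each, so the values have no error between mice. It does not say which condition is KO, so no CLIP difference has a direction by genotype here; a state of 0 marks a difference below 0, 2 a difference above 0, and 1 one near 0. The depth given is the coverage per base summed over both conditions. In all, 134 regions lay on the same strand within the 7 genes: 78 in Cdkn1b, 35 in Cdkn1a, 14 in Cdkn2c, 7 in Cdkn2d and 0 in Cdkn1c, Cdkn2a and Cdkn2b. Genes of low RNA abundance often had none: 1839 of 13037 tested genes with a position had no bin, and their median was 44.8 normalized counts.

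Cdkn1b was bound most of the 7. Its summed depth, 63335 base coverages, ranked 127 of 13037 tested genes, and its highest bin, at 1214 per base, ranked 22. Per normalized RNA count the depth was 17.0 in Cdkn1b, which by this ratio ranked lower, at 805 of 13037. It was 2.17 in Cdkn1a, 2.29 in Cdkn2c and 0.528 in Cdkn2d, against a median of 1.004 over the genes tested. Bins covered 92.5% of the Cdkn1b span, yet 91.7% of the depth fell in the last 1500 nt before the annotated 3′ end and 43.7% in the last 500 nt.

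The highest peak of Cdkn1b stood 1109 to 1153 nt before the 3′ end, at chr6:134924360-134924404. This region of 45 nt had a mean depth of 889 and a mean difference of -0.23, in state 0, and the authors' score of 416.4 is the highest in the family (scores are 0 throughout in state 1). Its peak depth ranked 104 of 962700 regions. The regions touching it on either side, with mean depths of 428 and 455, were in state 1 at 0.03 and 0.05, and the next regions out were in state 2, at 0.27 (chr6:134924250-134924319) and 0.32 (chr6:134924520-134924604). The centre of this peak thus differed in sign from its flanks. Of the 10 Cdkn1b regions with a peak depth of at least 100, it was the only one in state 0, with 5 in state 1 and 4 in state 2. Of all 8558 regions of that depth, 22.1% were in state 0, 53.8% in state 1 and 24.2% in state 2. A lower difference than that of the Cdkn1b peak was found in 13.8% of these regions of all states, and their 5th percentile was -0.29. The difference of the peak was thus not extreme, as only 22.1% of the regions were in state 0. A score as high was found in 2.97% of those in state 0, but the score rose with depth. In Cdkn1b the highest scores, 416.4, 142.1, 83.7 and 50, stood at mean depths of 889, 221, 131 and 80.7.

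The other strong binding on Cdkn1b was at the 3′ end itself. A region 214 to 333 nt before the end (chr6:134925180-134925299) had a peak depth of 876 and a mean difference of -0.03, in state 1. Next to it, 149 to 213 nt before the end, a region in state 2 had a peak depth of 311, a difference of 0.28 and a score of 142.1. The last region, from 148 nt before to 31 nt past the annotated end, had a peak depth of 638 in state 1. The region with the third highest score, 83.7, is the one in state 2 at 0.27 beside the highest peak, and the next, 50, lay 784 to 858 nt before the end, also in state 2.

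**Figure D4:**
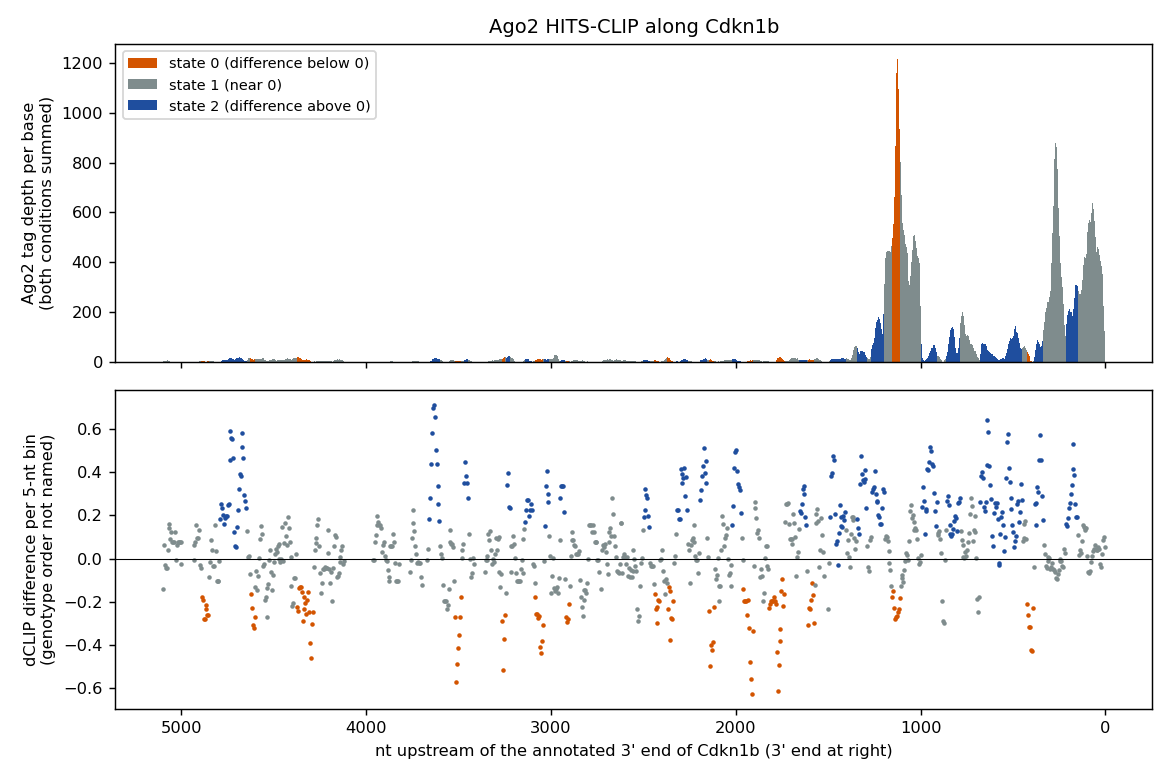
Ago2 HITS-CLIP along Cdkn1b against the distance in nt before its annotated 3′ end (3′ end at the right): the upper panel is the tag depth per base summed over both conditions, the lower panel the authors' difference per 5-nt bin, and colours are the authors' states. The highest peak, at 1214 per base and 1123 nt before the end, is in state 0 at its centre and in state 1 beside it; the peak of 876 near the end is in state 1.

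Cdkn1a, in human cells a known target of the miR-17 family, had its depth in the same part of the gene, with 86.0% in the last 1500 nt. Its highest region by score, 38.5, lay 1083 to 1282 nt before the 3′ end (chr17:29099440-29099639), in state 2 with a peak depth of 176 and a difference of 0.27. Another in state 2, with a peak depth of 115 and a difference of 0.34, reached the annotated end (chr17:29100595-29100724). Between them lay shallower regions of both states. One in state 2, with a score of 11.2, lay 988 to 1012 nt before the end. One in state 0, with a score of 9.40, a difference of -0.24 and a peak depth of 29.0, lay 948 to 982 nt before it. Another in state 0 (chr17:29099900-29099964), with a score of 5.80 and a peak depth of 9.20, had the lower difference of -0.42.

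Cdkn2c had 77.2% of its depth in the last 500 nt, highest 9 to 188 nt before the end (chr4:109660885-109661064), in state 2 with a peak depth of 58.4, a difference of 0.33 and a score of 21.5. The region of the next highest score, 14.6, was also in state 2. Cdkn2d was bound little, with a peak depth of 15 at 55 to 124 nt before the end (chr9:21288465-21288534), in state 0 at -0.19 with a score of 5.10. Of its 7 regions 4 were in state 0 and 0 in state 2. Over the 4 bound genes the states were 22.4% state 0, 56.0% state 1 and 21.6% state 2, against 33.1%, 57.6% and 9.28% over all 962700 regions, and state 2 was more common also among all regions of high depth.

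**Figure D5:**
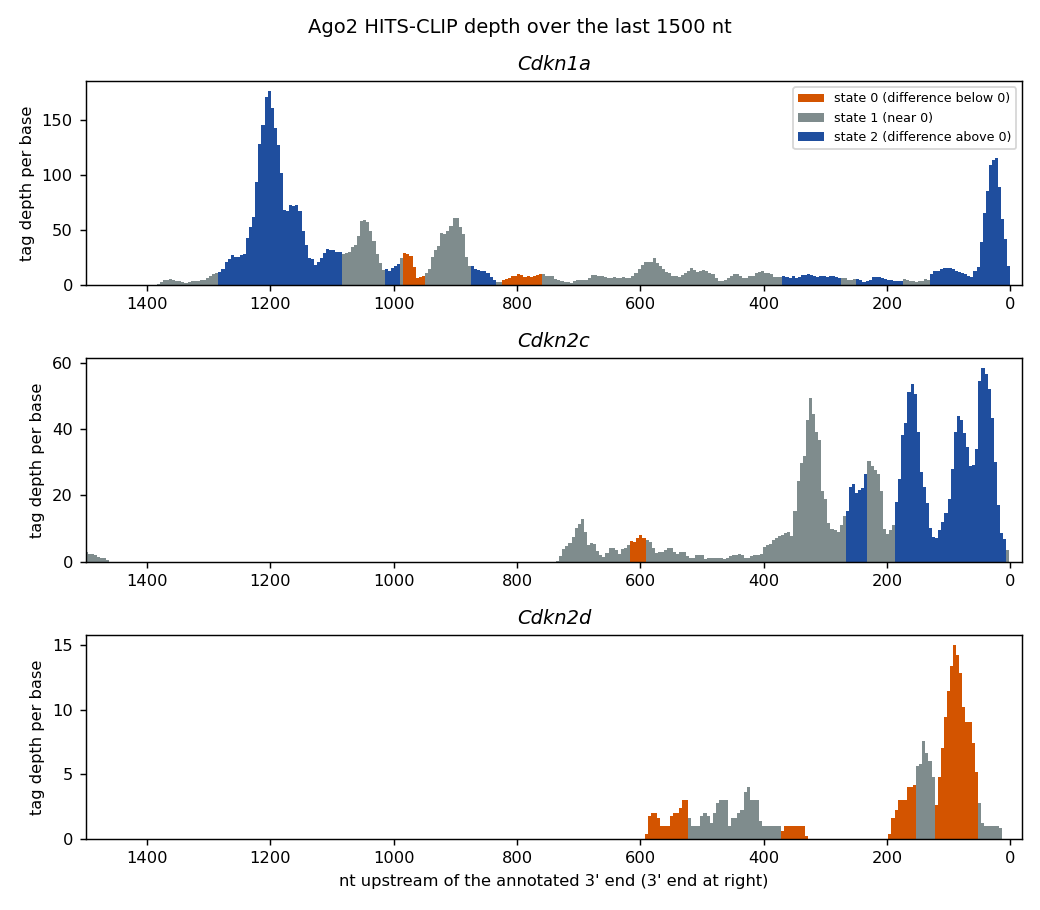
Ago2 tag depth per base, summed over both conditions, over the last 1500 nt before the annotated 3′ end of Cdkn1a, Cdkn2c and Cdkn2d (3′ end at the right; vertical axes differ), coloured by the authors' state. The highest bins are 176 in Cdkn1a, 58.4 in Cdkn2c and 15 in Cdkn2d.

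Set beside the RNA, Cdkn1b joins the strongest Ago2 binding of the family with a log2 fold change of -0.08 (SE 0.14), and Cdkn1c joins the lowest fold change, -0.92 (SE 0.25), with no Ago2 bin on its strand. Cdkn2d, at -0.51 (SE 0.17), had a peak depth of 15. A lack of bins in a gene as thinly read as Cdkn1c says that no binding was detectable at this depth, not that it was absent.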

How the data were processed

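Per the submitters' processing notes, cutadapt, Bowtie2, SAMtools, STAR, DESeq2 and DESeq were used on mm9; versions and roles are not given in the sources used here. The gene positions are those of GRCm38. CLIP positions were set against them without conversion between genome builds. The CLIP distances and the genes without bins therefore rest on both being on the same build. Per the file headers, the deposited table holds normalized counts (a signal: gene counts divided by 1 size factor per library, 1 decimal), variance-stabilized log2 values, a log2 fold change, a fold change ratio, p-values and the percent GC. Its WT columns were taken as Flox 1 to 4. The authors' dCLIP output holds a difference score, a hidden state and tag coverage per bin, and the deposited summary a score per region. The tag columns, whose genotype is not named, were used only as their sum; 2 mutation columns were not used.

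Whole reads were recovered: 100% of values in each library were whole within 0.1 read. limma-trend (limma 3.58.1) on log2(value + 1), Benjamini-Hochberg over 13091 genes with a mean of at least 10, was the main fit. edgeR 4.0.16 and DESeq2 1.42.0 were run on the reads. edgeR called 9 genes. The 7 genes, the lists and the tests were chosen with earlier results of these data known. Named genes are the 7, the 4 of smallest p per list (mean of at least 50), the 3 most alike per inhibitor, chromosomal neighbours, and up to 4 CLIP regions per gene by score; a few genes, neighbours and regions are not reported here. Alternatives were a pseudocount of 10, other filters, TMM, a replicate block, left-out libraries and a span and GC correction (natural splines, 4 degrees of freedom). Intervals are limma's 95% intervals.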

Additional observations from a re-analysis of the deposited data

Results flagged for a closer look

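In 142 groups of 4 libraries (71 genes by 2 genotypes), 11 had a library far from the other 3 by Dixon's criterion, which chance gives in about 1 of 20 groups. Among the inhibitors, Cdkn1a was at 4017.6 normalized counts in KO 1, against 2318.2 to 2581.4 in the other KO libraries, and Cdkn2b at 34.0 in Flox 2, against 61.0 to 64.6. Beside Cdkn1a, Trp53cor1 was at 68.7 in KO 1, against 25.8 to 30.1. Beside Cdkn2c, 9630013D21Rik was at 54.4 in Flox 3, against 30.1 to 34.1. Of the Cdkn1c domain, Tnfrsf22 was at 299.9 in Flox 3, against 385.4 to 397.9.

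Among cell cycle genes, Mki67 was at 33156.5 in KO 3, against 21647 to 23541, Tk1 at 1812.9 in KO 4, against 1265 to 1303, and Wee1 at 900.5 in KO 1 (814.8 to 822.9 in the others) and 797.2 in Flox 1 (720.7 to 730.6). Tsc22d3 was at 1433.5 in Flox 1, against 1717 to 1749. Of the cell markers, Flt3 was at 2690.6 in KO 4, against 2107 to 2192.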

How the results depend on the processing

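No inhibitor passed the threshold in any of the 18 fits (17 for Cdkn1c, left out by a mean of at least 50). With 1 library left out at a time, log2 fold changes ran from -0.47 to -0.20 for Cdkn1a, -0.16 to 0.052 for Cdkn1b, -1.02 to -0.77 for Cdkn1c, -0.25 to 0.16 for Cdkn2a, 0.12 to 0.54 for Cdkn2b, -0.28 to -0.16 for Cdkn2c and -0.64 to -0.43 for Cdkn2d. The sign turned for Cdkn1b with the span and GC correction (0.0095) and for Cdkn2a in edgeR (0.015), in DESeq2 (0.013) and without KO 1 and KO 3 (0.38). The cause was not tested. Genes called numbered 8 to 17 with 1 library left out (17 without KO 2, 14 without KO 4) and 199 in DESeq2; in the pathway lists, 2 to 4 (4 without KO 2) and 7 in DESeq2. List medians ran from -0.029 to 0.089 for G1 cyclins and CDKs, -0.19 to -0.063 for other arrest genes (-0.073 without KO 1 and KO 3, -0.061 with the span and GC correction) and -0.26 to -0.026 for the Cdkn1c domain (0.019 without KO 1 and KO 3). That of p53 targets ran from -0.104 to -0.016 (-0.011 with the span and GC correction, -0.097 without KO 1 and KO 3). The sign of the median also turned for cyclins and kinases of S phase and mitosis (-0.089 to 0.056; 0.047 without KO 1 and KO 3, 0.029 with the correction), p27 turnover genes (-0.018 to 0.012) and replication and mitosis genes (-0.023 to 0.072). With a CLIP score of at least 5, 30 regions were left in Cdkn1b, 7 in Cdkn1a, 2 in Cdkn2c and 1 in Cdkn2d. With the replicate number as a block 11 genes were called, but the numbers did not pair the libraries: same-number correlations were -0.09 to 0.00, and 0 of 4 KO libraries correlated best with their own number. Depth limits Cdkn1c, read at 28 to 37 reads per KO library and 44 to 103 per Flox library, and CLIP gives no error between mice.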
